A study of Mus musculus with 4 samples.

Results

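The colony-stimulating factor genes are the cytokine genes Csf1, Csf2 and Csf3, the receptor genes Csf2ra, Csf2rb, Csf2rb2, Csf1r and Csf3r, and the transcription factor genes Stat5a and Stat5b. They were chosen by symbol in the annotation of the array, which gave 10 genes of 18193 in all. These genes had 20 probe sets. Of these, 19 were assigned to 1 gene alone, and 1 was shared by the neighbouring paralogs Csf2rb and Csf2rb2. At 8 of the 10 genes the signal lay above the low-signal floor of 44.3, explained below, on every array. The other 2, Csf2 and Csf3, lay under it on all 4 arrays.

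GM-CSF (encoded by Csf2) drives myeloid progenitors towards dendritic cells and macrophages. It binds a receptor made of a specific alpha chain (Csf2ra) and a beta chain (Csf2rb) that is shared with the receptors for interleukin 3 and interleukin 5. The receptor activates the kinase JAK2, which phosphorylates STAT5A and STAT5B. These proteins then enter the nucleus and switch on genes such as Cish, whose product damps the same pathway. M-CSF (Csf1) acts through the receptor tyrosine kinase Csf1r on monocytes and macrophages, and G-CSF (Csf3) acts through Csf3r, which is best known from neutrophils and their precursors.

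Bone marrow of male C57BL/6 mice aged 6 to 8 weeks was kept for 7 days with 500 U/ml GM-CSF, so all 4 cultures received the ligand of Csf2ra and Csf2rb from outside. The live 1D8 coculture held these bone marrow-derived dendritic cells (BMDC) together with 1D8 cells at 5 parts to 1. The line 1D8 derives from mouse ovarian surface epithelium and stands for the tumour in the submitters' labels. In the irradiated 1D8 coculture these cells had been given 50 Gy first. In the conditioned medium sample 1D8 supernatant made up 25% of the volume and no 1D8 cell was added, and the control BMDC were cultured without 1D8 material. The length of these treatments is not given in the sources used here. RNA of all 4 samples came from cells sorted for the surface protein CD80, with a fluorescent antibody.

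Each condition had 1 biological sample and 1 Affymetrix array, so no value below has a replicate, an error or a p-value, and higher and lower describe these arrays only. The values are MAS5 signals, 1 number per probe set on a linear scale. Signals under 44.3, which is the 50th percentile over the 4 arrays and is called the floor here, were raised to it before ratios were taken. Genes were called higher or lower from a 2-fold difference on. The mean signal without the extreme values was 150 on every array, but the arrays differed in other measures. The median signal was 46.8 in the live 1D8 coculture, 45.3 in the irradiated 1D8 coculture and 46.6 in conditioned medium, against 38.7 in the control. In the same order 62.5%, 62.0% and 61.8% of genes were above the floor, against 58.8% in the control. Ratios to the control carry this difference between arrays. Log2 ratios of probe sets of the same gene varied with an SD of 0.50 for live 1D8 coculture over control, 0.46 for irradiated 1D8 coculture over control and 0.45 for conditioned medium over control, against 0.26 for irradiated over live 1D8 coculture. These SDs are the nearest measure of error in the files, and they cover differences between probes, not between cultures. The Actb control probe sets, read as the 3' over the 5' signal to judge RNA integrity, gave 1.12 to 1.20 on the treated arrays and 1.30 on the control array.

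The labelled cell type was checked against markers. All 10 dendritic cell markers, among them Itgax, Cd74 and H2-Eb1, were above the floor on all 4 arrays, as were 10 or 11 of 13 macrophage markers, with Cd163 and Timd4 under it throughout. Of the dendritic cell markers, Flt3 (45.5 in the control) and Zbtb46 (56.1 to 63.1) lay close to the floor. The samples labelled as dendritic cells therefore had signal for markers of both sets, though weakly for Flt3 and Zbtb46. Of 12 epithelial and mesothelial markers, 10 were above the floor in the live 1D8 coculture and 10 in the irradiated 1D8 coculture, against 5 in conditioned medium and 3 in the control. Their summed signal was 2926 in the live 1D8 coculture, 3571 in the irradiated 1D8 coculture, 808 in conditioned medium and 465 in the control. Signals of the cocultures may therefore include 1D8 RNA, and RNA of the tumour cells and of BMDC cannot be told apart here. In such samples fewer cells of a type and less RNA per cell cannot be told apart either.

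Among the 8 genes above the floor, 2 were at least 2-fold lower in the live 1D8 coculture than in the control, and none was higher. In the same comparison 3.43% of 11836 genes above the floor on either array were lower and 5.17% were higher. In the irradiated 1D8 coculture the same 2 genes were lower and none was higher, where 3.47% of 11773 genes were lower and 5.37% were higher. In conditioned medium no member was 2-fold apart from the control, where 2.20% of 11662 genes were lower and 3.59% were higher. These shares over all genes also stand beside the counts of marker and pathway genes given against the control elsewhere in this text. The genes that were lower in both cocultures were Csf3r and Stat5a, and for Stat5a the 2 probe sets disagreed. The 3 comparisons share the control array. The median log2 ratio of the 8 members was -0.41 in the live 1D8 coculture, -0.19 in the irradiated 1D8 coculture and -0.35 in conditioned medium, beside medians of 0.00, -0.01 and 0.03 over all genes above the floor in these comparisons.

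**Figure D1:**
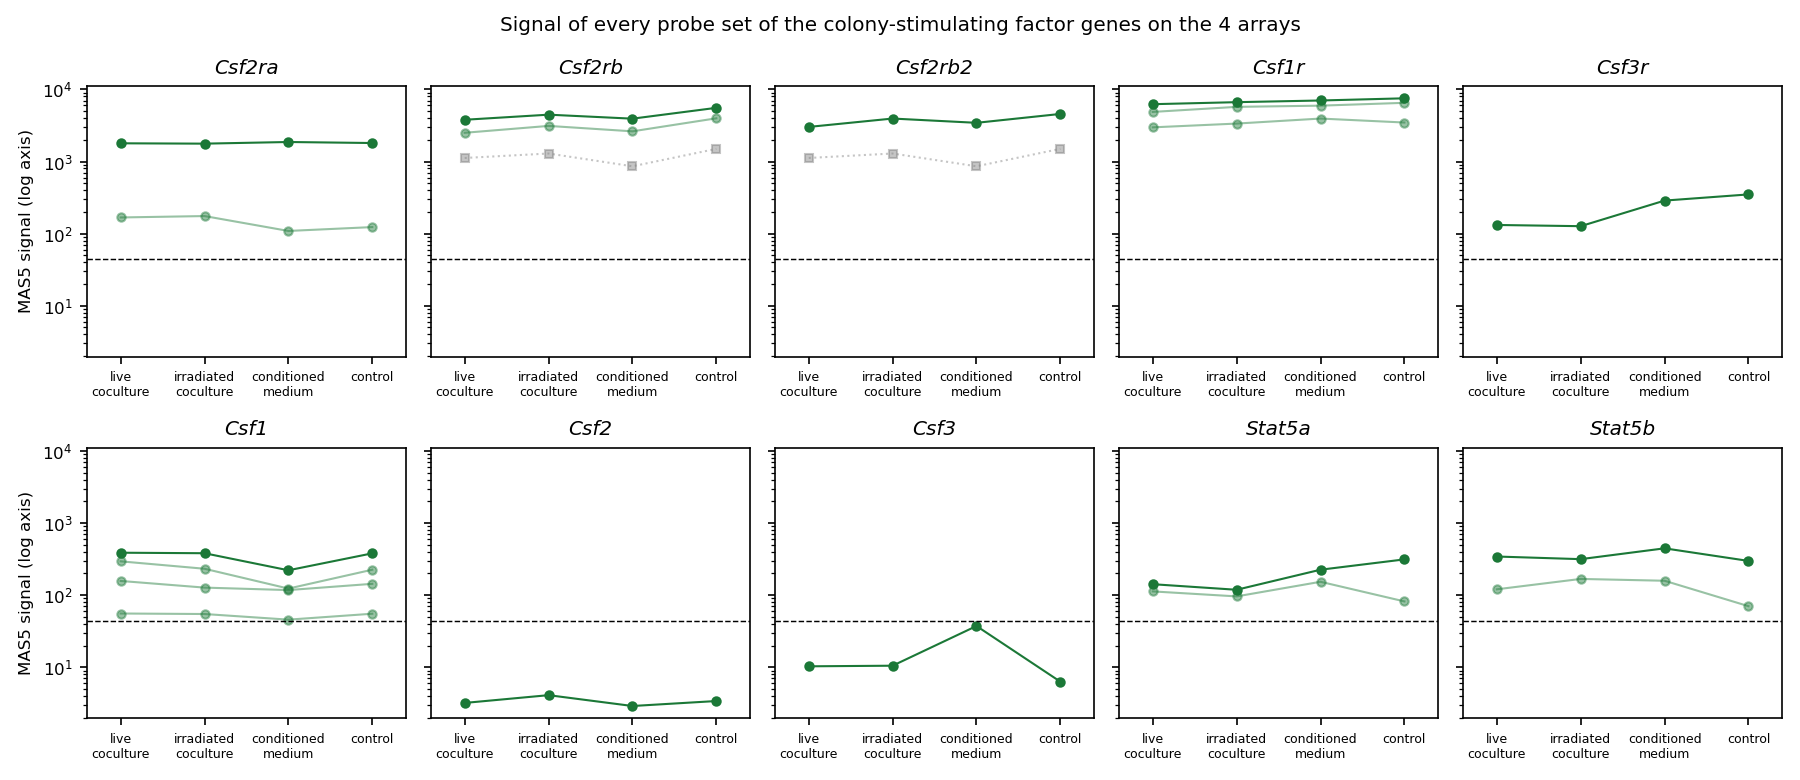
MAS5 signal (log axis) of every probe set of the 10 genes on the 4 arrays. Each line is a probe set, the dark one the brightest of its gene, grey squares the probe set shared by Csf2rb and Csf2rb2, and the dashed line the floor of 44.3. Csf3r lies at 132 and 127 in the cocultures against 350 in the control, while Csf2 and Csf3 stay under the floor on every array.

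Csf3r, the G-CSF receptor, had a signal of 131.8 in the live 1D8 coculture, 126.8 in the irradiated 1D8 coculture, 287.1 in conditioned medium and 349.6 in the control. Both cocultures were low and close to each other, and conditioned medium lay near the control. The receptor gene was 2.65-fold lower in the live 1D8 coculture than in the control (log2 ratio -1.41) and 2.76-fold lower in the irradiated 1D8 coculture (log2 ratio -1.46). In conditioned medium it was 1.22-fold lower (log2 ratio -0.28), short of the threshold. Of all genes above the floor, 0.98% had a ratio as low or lower in the live 1D8 coculture, 1.04% in the irradiated 1D8 coculture and 25.0% in conditioned medium. A single probe set measured Csf3r, so no other probe set can be set beside it.

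The difference between the cocultures and conditioned medium was of the same order. Csf3r was 2.18-fold lower in the live 1D8 coculture than in conditioned medium, the 1 of 8 members called there, where 4.37% of 12023 genes above the floor were 2-fold apart in either direction. It was 2.26-fold lower in the irradiated 1D8 coculture than in conditioned medium, again the 1 member called, where 4.84% of 11958 genes were 2-fold apart. Between the irradiated and the live 1D8 coculture no member was 2-fold apart, where 1.02% of 11915 genes were. With the floor raised to the 75th percentile of signals (155.6), both coculture signals of Csf3r fall under the floor and its log2 ratio of each coculture to conditioned medium becomes -0.88, under the threshold.

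Of 11 measured neutrophil markers, 9 were above the floor on at least 1 array, and 4 of these, Ngp, Mpo, Elane and Mmp8, had lower signals after the floor in both cocultures than on both other arrays, as Csf3r did. Of 12422 genes above the floor on any array, 22.6% had this order. Of the 11 markers, 7 were above the floor in the live 1D8 coculture, 6 in the irradiated 1D8 coculture, 8 in conditioned medium and 9 in the control. Their summed signal was 3723 in the live 1D8 coculture, 4515 in the irradiated 1D8 coculture, 8128 in conditioned medium and 7914 in the control. Mmp8, a collagenase of neutrophil granules, made up most of that sum, with 2635, 3102, 6902 and 5677 on these arrays. Without Mmp8 the other 10 summed to 1088 in the live 1D8 coculture, 1414 in the irradiated 1D8 coculture and 1226 in conditioned medium. In the control they summed to 2236, so conditioned medium lay with the cocultures in this sum, unlike for Csf3r. The largest part of this sum was S100a8, a calgranulin gene, with 557.2, 757.1 and 382.6 on the treated arrays and 963.6 in the control. Prtn3, a granule protease gene, read 213.5, 294.6 and 243.1 on the treated arrays and 183.2 in the control. Elane, the neutrophil elastase gene, read 27.0, 30.2, 128.5 and 158.8 across those arrays. The neutrophil genes Camp and Cxcr2 were under the floor on all 4 arrays, where signals have no reliable order. Against the control, 5 neutrophil markers were lower in the live 1D8 coculture, 4 in the irradiated 1D8 coculture and 3 in conditioned medium, and none was higher. Dendritic cell markers differed as well, with a summed signal of 11705 in the live 1D8 coculture, 12394 in the irradiated 1D8 coculture, 17402 in conditioned medium and 19435 in the control. Of these 10, 3 were lower in the live 1D8 coculture, 2 were lower and 1 higher in the irradiated 1D8 coculture, and 1 was lower in conditioned medium. H2-Eb1, an MHC class II gene, was 3.15-fold lower in the live and 2.57-fold lower in the irradiated 1D8 coculture. Ccr7, a chemokine receptor gene of mature dendritic cells, was 4.53-fold, 5.08-fold and 3.39-fold lower on the live 1D8 coculture, irradiated 1D8 coculture and conditioned medium arrays. The part of either cell type in the Csf3r values was not tested.

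Mast cell and basophil markers, whose cells respond to interleukin 3 through Csf2rb and Csf2rb2, had a summed signal of 351 in the live 1D8 coculture, 448 in the irradiated 1D8 coculture, 907 in conditioned medium and 1487 in the control. Of the 11, 3 were above the floor in each coculture, 4 in conditioned medium and 6 in the control, and the tryptase genes Tpsb2 and Tpsab1 were under it throughout. Of 5 measured eosinophil markers 4, with the defining gene Epx among them, were under the floor on all 4 arrays. No measured T cell receptor complex gene other than Cd3e, at 58.0 in the irradiated 1D8 coculture, exceeded the floor on any array.

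**Figure D2:**
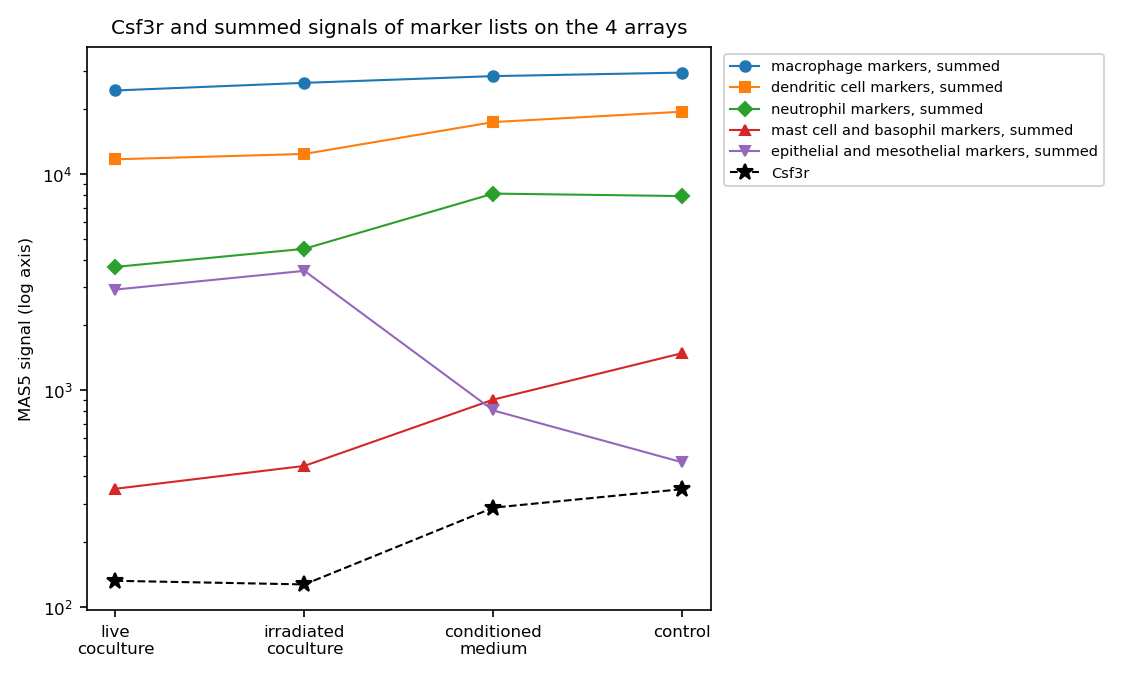
MAS5 signal (log axis) of Csf3r and the summed signals of 5 marker lists on the 4 arrays. Neutrophil and mast cell sums are lower in both cocultures than in conditioned medium and control, as is Csf3r. The neutrophil sum is mostly Mmp8, and without it conditioned medium (1226) lies with the cocultures (1088 and 1414), against 2236 in the control. S100a8 is the largest part of what remains. The epithelial sum is 2926 and 3571 in the cocultures against 465 in the control.

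The genes whose 3 log2 ratios to the control lay nearest to those of Csf3r, among 9847 genes above the floor on all 4 arrays, were 9330151L19Rik, Cd28 and Tspan13, at Euclidean distances of 0.05, 0.08 and 0.09. This likeness rests on 3 ratios that share 1 control array. Cd28, a costimulatory receptor known from T cells, had signals of 190.8 in the live 1D8 coculture, 182.4 in the irradiated 1D8 coculture, 404.0 in conditioned medium and 486.5 in the control. The order of its levels was the same as for Csf3r, which follows from the choice by nearest ratios and is no further likeness.

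The promoter of Csf3r is shown since this receptor differed most. It is the RefSeq sequence of build GRCm38.p6, from 250 bases before the annotated start to 50 after it. The second run of capitals marks GAGGAA, a core that the myeloid transcription factor PU.1 can bind, searched on both strands. Of 32851 promoter windows of this length, 28.3% hold it, so a match here is common. The first run of capitals is a match, on the other strand, to the NF-kappaB consensus, which 8.46% of windows hold. The 2 matches do not overlap.
Csf3r promoter, chr4:126024409-126024708, plus strand: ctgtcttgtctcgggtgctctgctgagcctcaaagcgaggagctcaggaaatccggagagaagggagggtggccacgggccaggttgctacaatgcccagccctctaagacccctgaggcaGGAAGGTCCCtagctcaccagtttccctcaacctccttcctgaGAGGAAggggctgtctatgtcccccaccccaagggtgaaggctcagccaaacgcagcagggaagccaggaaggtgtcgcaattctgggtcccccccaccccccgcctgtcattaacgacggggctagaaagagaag

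Spi1, which encodes PU.1, was close to level, with signals of 1330 in the live 1D8 coculture, 1095 in the irradiated 1D8 coculture, 1266 in conditioned medium and 1345 in the control. Cebpa, a transcription factor gene needed for granulocyte progenitors, was lower in both cocultures. Its signal was 858.4 in the live 1D8 coculture (2.43-fold lower), 827.8 in the irradiated 1D8 coculture (2.52-fold lower) and 1277 in conditioned medium (1.63-fold lower), against 2082 in the control.

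Of 17 transcription factors known to act at these receptor genes or in the myeloid cells that use them, Spi1 and Cebpa included, 15 had a probe set of their own. In each coculture 3 were higher than in the control, and Cebpa was the 1 lower. Over all genes above the floor, 5.17% were higher in the live and 5.37% in the irradiated 1D8 coculture. In conditioned medium 1 was higher and none lower, and the list medians were 0.15, 0.00 and 0.07 on the log2 scale. Ets2, an ETS family factor, was 7.23-fold higher in the live 1D8 coculture with a signal of 1952, 7.59-fold higher in the irradiated 1D8 coculture with 2049, and 1.05-fold higher in conditioned medium with 282.9, against 269.9 in the control. Egr1, an immediate early factor, had signals of 5220 in the live 1D8 coculture, 5373 in the irradiated 1D8 coculture and 2751 in conditioned medium, against 1688 in the control. For Runx1, which acts at the Csf1r locus, the brightest probe set was 2.41-fold, 2.58-fold and 2.56-fold higher on the live 1D8 coculture, irradiated 1D8 coculture and conditioned medium arrays than on the control array. Another probe set of Runx1 had -1.48 (log2) in the live 1D8 coculture, so no direction is given for it.

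Against the control, each GM-CSF receptor chain differed by less than 2-fold in all 3 treated samples. Csf2ra, the chain that is specific for GM-CSF, was level at its brightest probe set, with signals of 1788 in the live 1D8 coculture, 1769 in the irradiated 1D8 coculture, 1864 in conditioned medium and 1804 in the control. These 4 values span less than the SD between probe sets. The dimmer probe set read 167.5, 175.2, 108.9 and 123.2 in the same order, with log2 ratios to the control of 0.44 and 0.51 in the cocultures and -0.18 in conditioned medium.

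The beta chains were highest in the control at every probe set. Csf2rb, the common beta chain, had signals of 3791 in the live 1D8 coculture, 4460 in the irradiated 1D8 coculture and 3926 in conditioned medium, against 5549 in the control. Its log2 ratios to the control were -0.55, -0.32 and -0.50, and those of its other probe set were -0.67, -0.35 and -0.60. Csf2rb2, a mouse paralog that serves interleukin 3 alone, had signals of 3016 in the live 1D8 coculture, 3942 in the irradiated 1D8 coculture and 3439 in conditioned medium, against 4566 in the control. Its log2 ratios were -0.60, -0.21 and -0.41. The shared probe set had log2 ratios of -0.42, -0.21 and -0.80. All 12 ratios were under 0, all were short of 2-fold, and 6 of them were no larger than the SD between probe sets of a gene. The 2 genes lie next to each other on chromosome 15, with 0 coding genes between them. One of these probe sets is shared by both genes, and whether RNA of one gene also binds the other probe sets of its neighbour was not tested.

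Small differences of this kind depend on how the arrays are scaled. Median centring did not use the median signals given earlier. Each array was shifted by its median over only those probe sets, with or without a gene, that exceeded the floor on every array. For live 1D8 coculture over control, this moved the median log2 ratio of the 9847 genes above the floor throughout from -0.04 to -0.17. This centring thus took these genes further from 0, and lowered ratios to the control. After centring, Csf2rb had log2 ratios of -0.67 in the live 1D8 coculture, -0.39 in the irradiated 1D8 coculture and -0.61 in conditioned medium. After quantile normalization they were -0.34, -0.27 and -0.36. Csf2rb2 had -0.40, -0.16 and -0.26 after quantile normalization. Both genes thus stayed under 0 under each scaling, but centring as done here could only lower their ratios, so it is no check of their sign.

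The promoter of Csf2rb2 is shown as that of the beta chain for which a sequence was found. Its capitals mark 2 copies of TTCCTC, which is GAGGAA read on the other strand, and 1 copy of TTCNNNGAA, the pattern that STAT dimers such as STAT5 bind. The STAT pattern is found in 8.30% of the 32851 promoter windows.
Csf2rb2 promoter, chr15:78305672-78305971, minus strand: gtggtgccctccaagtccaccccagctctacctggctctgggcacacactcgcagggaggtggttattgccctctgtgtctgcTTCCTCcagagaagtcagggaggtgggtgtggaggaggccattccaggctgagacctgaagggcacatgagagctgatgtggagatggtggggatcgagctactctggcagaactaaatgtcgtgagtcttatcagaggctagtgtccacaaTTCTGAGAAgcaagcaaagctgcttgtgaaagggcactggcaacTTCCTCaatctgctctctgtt

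Csf1r, the M-CSF receptor, is a defining gene of macrophages and among the bright probe sets here. Its signals were 6233 in the live 1D8 coculture, 6649 in the irradiated 1D8 coculture, 7015 in conditioned medium and 7521 in the control. The log2 ratios to the control were -0.27, -0.18 and -0.10, and over its 3 probe sets they ranged from -0.42 to -0.22 in the live 1D8 coculture, from -0.19 to -0.05 in the irradiated 1D8 coculture and from -0.13 to 0.18 in conditioned medium. None of these values exceeds the SD between probe sets. The summed signal of 13 macrophage markers was 24351, 26414 and 28378 on the treated arrays in the same order, and 29460 on the control array.

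Csf1, which encodes M-CSF, was lowest in conditioned medium. Its brightest probe set had signals of 387.2 in the live 1D8 coculture, 381.0 in the irradiated 1D8 coculture, 221.0 in conditioned medium and 379.6 in the control. Conditioned medium was the low array at all 4 probe sets, while both cocultures lay near the control. The log2 ratio of conditioned medium to the control was -0.78 (1.72-fold lower), under the threshold, and 5.13% of genes above the floor had a ratio as low or lower. The other 3 probe sets had -0.87, -0.29 and -0.27, so all 4 pointed the same way. For the live 1D8 coculture the 4 ratios lay between 0.01 and 0.39, and for the irradiated 1D8 coculture between -0.17 and 0.04. One of the probe sets, with signals of 45.7 to 55.6, barely exceeded the floor. The cocultures also carried epithelial marker RNA, and the share of 1D8 RNA in their Csf1 signal was not tested.

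The promoter of Csf1 is shown for its match to the NF-kappaB consensus, in capitals and read on the other strand. Of the other members searched, Csf3r and 1 of the 2 promoter windows of Stat5a also held a match. No promoter of Csf1r, Csf2rb or Csf3 was searched.
Csf1 promoter, chr3:107760420-107760719, minus strand: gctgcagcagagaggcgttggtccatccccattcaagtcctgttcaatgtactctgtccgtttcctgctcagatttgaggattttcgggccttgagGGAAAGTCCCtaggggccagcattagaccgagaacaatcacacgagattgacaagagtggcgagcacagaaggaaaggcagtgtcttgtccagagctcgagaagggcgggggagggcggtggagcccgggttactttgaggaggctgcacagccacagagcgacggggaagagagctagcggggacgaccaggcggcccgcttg

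The other 2 cytokine genes were at the bottom of the signal range. Csf2, the GM-CSF gene itself, read 3.2 in the live 1D8 coculture, 4.1 in the irradiated 1D8 coculture, 2.9 in conditioned medium and 3.4 in the control. Csf3, the G-CSF gene, read 10.3 in the live 1D8 coculture, 10.5 in the irradiated 1D8 coculture, 37.3 in conditioned medium and 6.3 in the control. Conditioned medium was the high array for Csf3, but all 4 signals lay under the floor of 44.3, where values have no reliable order, and no fold is given. Neither cytokine was detectable above the floor in any of the sorted samples. The sister cytokine genes Il3 and Il5, which share the beta chain, and Il34, a second ligand of Csf1r, were also under the floor on all 4 arrays. Il5ra was under it too, and Il3ra, the alpha chain for interleukin 3, had signals of 71.6, 64.4 and 81.8 on the treated arrays and 85.6 in the control.

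**Figure D3:**
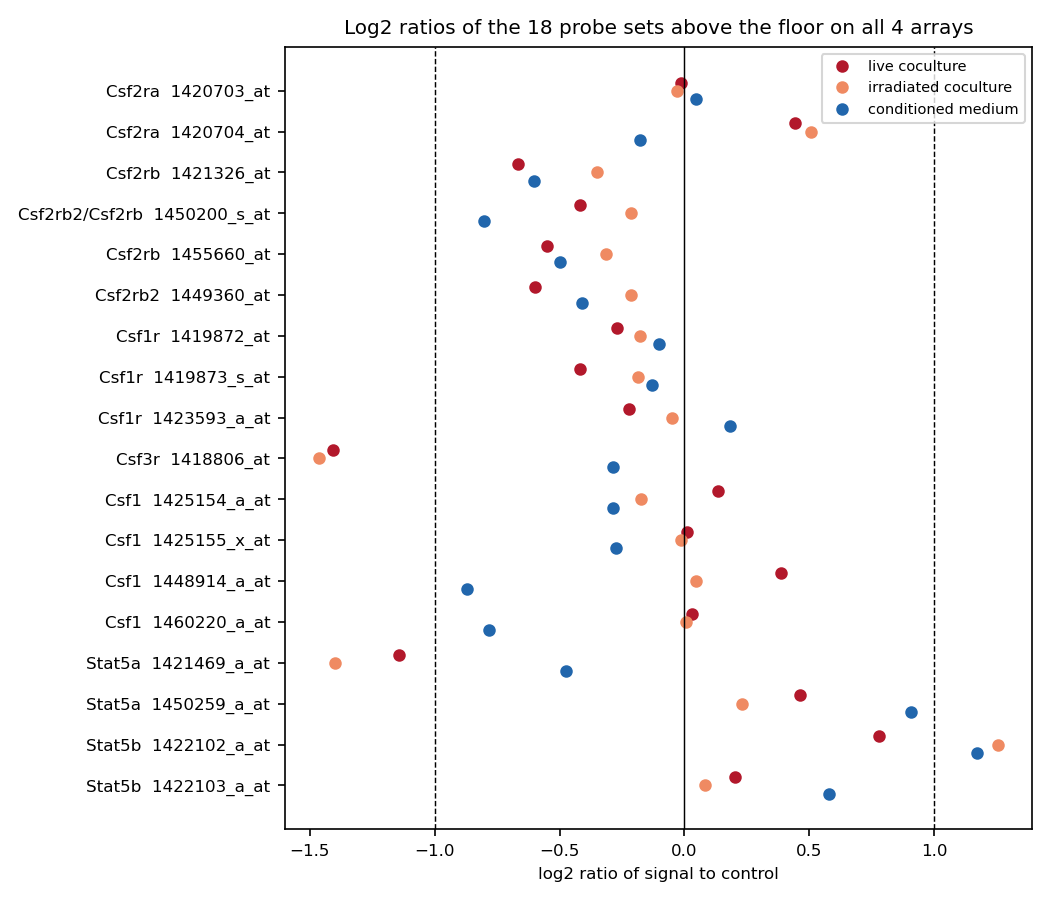
Log2 ratio to the control of the 18 probe sets that exceeded the floor on all 4 arrays, for each treated array, with dashed lines at 2-fold. Csf3r lies at -1.41 and -1.46 in the cocultures, all Csf2rb and Csf2rb2 points lie under 0, and the 2 Stat5a probe sets lie on opposite sides of 0.

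Stat5a and Stat5b encode the transcription factors that GM-CSF receptors activate, and lie next to each other on chromosome 11. The brightest Stat5a probe set had signals of 141.7 in the live 1D8 coculture, 118.6 in the irradiated 1D8 coculture, 225.1 in conditioned medium and 312.9 in the control. It was thus 2.21-fold lower in the live 1D8 coculture (log2 ratio -1.14), 2.64-fold lower in the irradiated 1D8 coculture (log2 ratio -1.40) and 1.39-fold lower in conditioned medium (log2 ratio -0.48). The other Stat5a probe set read 112.6 in the live 1D8 coculture, 96.0 in the irradiated 1D8 coculture and 153.1 in conditioned medium, against 81.8 in the control. The control array was the highest at the first probe set and the lowest at the second, and the log2 ratios of the second were 0.46, 0.23 and 0.90. As the mean over both probe sets, the log2 ratio was -0.34 in the live 1D8 coculture and -0.58 in the irradiated 1D8 coculture, so neither call held, and 0.21 in conditioned medium. No direction relative to the control is therefore given for Stat5a. Among the treated arrays the 2 probe sets had the same order, with conditioned medium highest, live 1D8 coculture next and irradiated 1D8 coculture lowest.

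The genes nearest to the brightest Stat5a probe set by the same distance were Cd22, Myo1f and Clcn7, at 0.09, 0.10 and 0.11. They are given as a description of that probe set alone.

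Both probe sets of Stat5b were higher on every treated array than in the control, but by unequal amounts. The brightest read 342.9 in the live 1D8 coculture, 315.3 in the irradiated 1D8 coculture and 445.5 in conditioned medium, against 298.1 in the control, with log2 ratios of 0.20, 0.08 and 0.58. The dimmer read 120.4, 167.7 and 158.2 on these arrays, against 70.3 in the control, with log2 ratios of 0.78, 1.25 and 1.17. The brightest probe set, by which genes were counted, was short of 2-fold on all 3 arrays.

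A list of 19 known STAT5 targets and genes that feed back on cytokine receptors was measured in full. In the live 1D8 coculture 8 were at least 2-fold higher, 1 was lower and 10 were short of 2-fold. The irradiated 1D8 coculture gave the same numbers. In conditioned medium 1 was higher and none lower. Over all genes above the floor 5.17%, 5.37% and 3.59% were higher in these comparisons. The list medians were 0.60, 0.69 and 0.16 on the log2 scale, beside 0.00, -0.01 and 0.03 over all genes above the floor. Many of these genes also respond to signals other than STAT5, and on the 2 coculture arrays the epithelial markers were higher as well, so the cells that carried the RNA cannot be told apart.

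Ccnd2, the gene of cyclin D2, a driver of cell cycle entry, had signals of 1550 in the live 1D8 coculture, 1396 in the irradiated 1D8 coculture and 470.0 in conditioned medium, against 185.1 in the control. It was 8.37-fold, 7.54-fold and 2.54-fold higher on these arrays and was the 1 gene of the list past 2-fold in conditioned medium. Id1, an inhibitor of basic helix-loop-helix factors, had signals of 645.9 in the live 1D8 coculture, 791.0 in the irradiated 1D8 coculture and 177.4 in conditioned medium, against 94.7 in the control. Osm, the gene of the cytokine oncostatin M, was 5.43-fold higher in the live 1D8 coculture and 4.47-fold higher in the irradiated 1D8 coculture, with signals of 1405 and 1158, and read 300.9 in conditioned medium and 259.0 in the control. Myc was 5.28-fold and 4.31-fold higher in the live and irradiated 1D8 cocultures, with signals of 536.0 and 437.7, and read 86.2 in conditioned medium and 101.6 in the control. All 4 genes were high in the cocultures, and conditioned medium lay between the cocultures and the control for Ccnd2, Id1 and Osm.

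Socs3, a feedback inhibitor of JAK kinases named in the title of the study, was highest in the irradiated 1D8 coculture at each of its 3 probe sets, with log2 ratios to the control of 1.89, 1.80 and 1.46. Cish, the feedback inhibitor most closely tied to STAT5, was picked out after its values were seen. Its signal was 591.1 in the live 1D8 coculture, 853.0 in the irradiated 1D8 coculture, 335.5 in conditioned medium and 300.2 in the control. It was 2.84-fold higher in the irradiated 1D8 coculture, 1.97-fold higher in the live 1D8 coculture, just short of the threshold, and 1.12-fold higher in conditioned medium. Bcl6, a repressor whose sites overlap those of STAT5, was the 1 lower gene of the list in both cocultures, at 95.3 and 154.8 against 322.1 in the control. Its other probe set had log2 ratios of 0.41 and -0.20, so no direction is given for it.

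**Figure D4:**
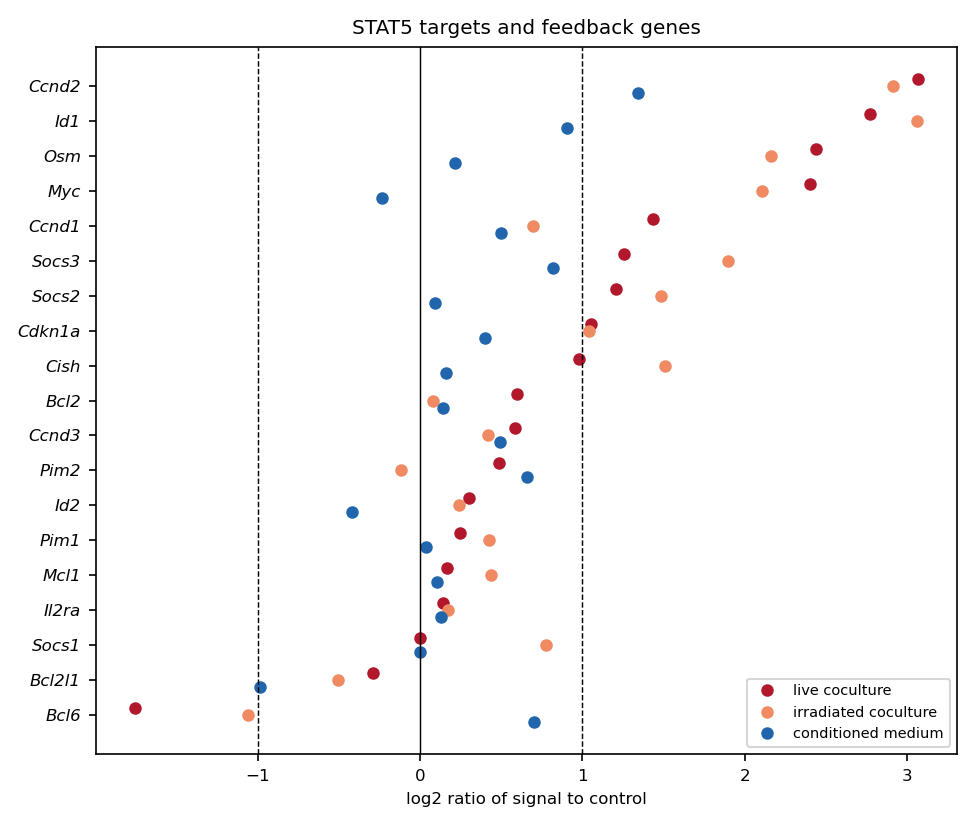
Log2 ratio to the control of the brightest probe set of 19 STAT5 target and feedback genes, for each treated array, with dashed lines at 2-fold. In each coculture 8 genes lie past 2-fold on the right, Ccnd2 and Id1 the farthest, and Ccnd2 alone does so in conditioned medium.

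The promoter of Cish is shown since it holds 2 copies of TTCNNNGAA (capitals) near the annotated start, where 8.30% of promoter windows hold at least 1. Among the 7 colony-stimulating factor genes whose promoters were searched, Csf2rb2 alone held this pattern. Promoters of Csf1r, Csf2rb and Csf3 were not searched.
Cish promoter, chr9:107296409-107296708, plus strand: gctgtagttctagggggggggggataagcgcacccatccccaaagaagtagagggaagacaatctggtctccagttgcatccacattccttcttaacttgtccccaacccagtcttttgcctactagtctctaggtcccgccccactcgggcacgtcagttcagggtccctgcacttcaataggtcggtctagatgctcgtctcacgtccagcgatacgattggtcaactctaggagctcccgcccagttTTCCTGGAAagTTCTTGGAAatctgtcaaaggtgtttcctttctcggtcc

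Of 23 genes whose proteins carry the signal from receptor to nucleus, 17 had a probe set of their own, and their mRNA was compared at the brightest. There none was 2-fold higher on any treated array, and the 1 that was lower was Pik3cd, a catalytic subunit of PI3 kinase, at 616.8 in the live 1D8 coculture, 819.0 in the irradiated 1D8 coculture and 664.6 in conditioned medium, against 1487 in the control. Other probe sets of Pik3cd pointed the other way, with log2 ratios of up to 0.64, 0.74 and 1.09, so no direction is given for it. Probe sets other than the brightest were past 2-fold higher on every treated array for the kinase gene Jak1 (log2 ratios of 1.64, 1.37 and 1.63), the PI3 kinase subunit gene Pik3r1 (1.74, 1.59 and 1.48) and the adaptor gene Shc1 (1.00, 1.17 and 1.26). No direction is given for Jak1 or Pik3r1 either, whose brightest probe sets had -0.20 and -0.68 in the live 1D8 coculture. In the irradiated 1D8 coculture alone, a dimmer probe set of the adaptor gene Grb2 was past 2-fold lower (log2 ratio -1.03). The brightest of Grb2 had -0.44, -0.59 and -0.24 on the treated arrays. A dimmer probe set of Sos1 was past 2-fold higher in the irradiated 1D8 coculture alone (1.05). Jak2, the kinase bound to the beta chain, had signals of 523.4 in the live 1D8 coculture, 520.3 in the irradiated 1D8 coculture and 635.0 in conditioned medium, against 681.7 in the control, at its brightest probe set. Its other probe set pointed the other way, with 380.1, 440.8 and 409.5 on these arrays against 316.3 in the control, so no direction is given for Jak2 either. The list medians were -0.26, -0.07 and -0.16.

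Cytokine mRNAs of this family carry AU-rich elements that mark them for decay, and 10 regulators of such mRNAs were measured. In each coculture 1 was higher than in the control and none was lower, with none either way in conditioned medium, and the medians were -0.11, -0.06 and -0.08. Over all genes above the floor, 5.17% were higher in the live and 5.37% in the irradiated 1D8 coculture, so 1 of 10 is no excess to be read. Zfp36, which encodes the decay factor tristetraprolin, had signals of 3741 in the live 1D8 coculture, 4258 in the irradiated 1D8 coculture (2.01-fold higher) and 2413 in conditioned medium, against 2117 in the control. Zc3h12a, an RNase gene, had 132.9 in the live 1D8 coculture (2.06-fold higher), 120.0 in the irradiated 1D8 coculture and 69.3 in conditioned medium, against 64.6 in the control. Both lay close to the threshold, and neither passed it after median centring.

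Of 12 genes listed here as dependent on GM-CSF in myeloid cells, 2 were lower in the live 1D8 coculture with none higher. In the irradiated 1D8 coculture 2 were lower and 1 higher, and in conditioned medium 3 were lower with none higher. Over all genes above the floor 3.43%, 3.47% and 2.20% were lower in these comparisons, and 5.17%, 5.37% and 3.59% were higher. The list medians were -0.26, -0.28 and -0.13. Fabp4, a fatty acid binding protein gene, had signals of 448.8 in the live 1D8 coculture, 377.2 in the irradiated 1D8 coculture and 1909 in conditioned medium, against 4012 in the control, and all 4 of its probe sets had lower signals on every treated array. Its conditioned medium value lay near the threshold (log2 ratio -1.07) and did not pass it after quantile normalization (-0.91) or as the mean over probe sets (-0.76). Ccl22, a chemokine that attracts T cells, had 229.1, 300.8 and 355.6 on these arrays against 1417 in the control. Ccl17, which acts on the same receptor, had 394.9 in the live 1D8 coculture, 384.2 in the irradiated 1D8 coculture and 250.9 in conditioned medium, against 736.6 in the control, and passed 2-fold in conditioned medium alone of the 3. Car4, a carbonic anhydrase gene, was the 1 higher gene, at 166.7 in the irradiated 1D8 coculture against 76.4 in the control. Pparg, a nuclear receptor gene, lay under the floor on the 3 treated arrays and read 85.1 in the control. After median centring 4 genes of this list were lower in each coculture, and after quantile normalization Car4 was no longer past 2-fold.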

How the data were processed

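RNA of CD80-sorted mouse BMDC was amplified in 1 round, labelled with biotin and hybridised to 4 Affymetrix arrays, per the labels' protocols. The deposited values are signal intensities, 1 per probe set, from the software GCOS 1.4 and MAS5 run by the authors, per the submitters' processing notes. The scaling target is not given in the sources used here. MAS5 subtracts mismatch signal, which makes dim ratios noisy.

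Without 64 control probe sets, 45037 remained, of which 34945 were assigned to 1 gene, 932 to several and 9160 to none. For each of 18193 genes the brightest probe set (mean log2 signal over the arrays) was used. Ratios were taken on the log2 scale after the floor, with Python 3.11.15, numpy 2.4.6 and pandas 2.3.3, and the steps were tested on simulated data. The simulated differences were placed in genes far above the floor, with noise smaller than the SD between probe sets. Calls near the floor were therefore not covered by that test. The 1 array per condition allowed no test, and arrays give no counts: their number limits the precision.

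The genes and lists were chosen with earlier results of these data known. The genes named are all members, up to 5 of each pathway list with the largest ratios past 2-fold, all 5 of the shared-subunit list, and the 3 genes most alike to a called member, and others are identified. Alternatives were floors at the 25th and 75th percentile, quantile normalization, median centring, the mean over probe sets and a 3-fold threshold. Fibroblast, B cell and T or NK cell markers were also summed.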

Additional observations from a re-analysis of the deposited data

How the results depend on the processing

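Csf3r was lower than the control in both cocultures with the floor at the 75th percentile, quantile normalization and median centring, while the lower floor and the mean over probe sets left its ratio fixed by construction. With the mean over probe sets the number of members called was 1 in place of 2 for each coculture over control, since Stat5a no longer passed. With a 3-fold threshold it was 0 in each of these comparisons and in each coculture over conditioned medium. With the floor at the 25th percentile (12.9), Csf3 was counted as higher in conditioned medium than on the other arrays, which gave 1 member in place of 0 over control and 2 in place of 1 for each coculture over conditioned medium. With the floor at the 75th percentile it was 0 for each coculture over conditioned medium, since the signals of Csf3r fell under that floor by construction. The remaining alternatives left the 6 counts as they were. Of 300 log2 ratios of members under these alternatives 145 changed at all, 134 by less than the SD between probe sets and 11 by more, and 0 of the called ones changed sign. In the pathway lists, averaging probe sets ended the calls of Socs2 (log2 0.49 in the live and 0.80 in the irradiated 1D8 coculture), Bcl6 (-0.67 and -0.63), Runx1 (0.17, 0.65 and, in conditioned medium, 0.44), Zc3h12a (0.85, live), Fabp4 (-0.76, conditioned medium) and Pik3cd (-0.06, live, and 0.15, conditioned medium). For Socs2 the 2 brightest probe sets had 1.21 and 1.27 in the live and 1.49 and 1.57 in the irradiated 1D8 coculture. Its mean also held dim probe sets, some with a ratio of 0 because their signals lay under the floor. The 75th percentile floor ended those of Runx1 (0.18, 0.27 and 0.26), Zc3h12a (0.00, live) and Car4 (0.10, irradiated). Median centring, which lowered ratios to the control by construction, ended those of Cdkn1a (0.93 and 0.97), Zc3h12a (0.92) and Zfp36 (0.94, irradiated). Quantile normalization ended those of Zc3h12a (0.81), Car4 (0.96) and Fabp4 (-0.91). STAT5 genes counted as higher numbered 7 or 8 in the live and 7 to 9 in the irradiated 1D8 coculture under these, and 4 and 5 at 3-fold. Of all genes past 2-fold in the live 1D8 coculture, 612 were higher and 406 lower as deposited, quantile normalization gave 479 and 482, and median centring gave 490 and 559. In conditioned medium the split was 419 and 256 as deposited, 284 and 340 with quantile normalization, and 300 and 408 with centring. The cause of these shifts was not tested. No paired analysis was possible because each condition had 1 array.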

Other observations

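Of 12 fibroblast and stroma markers, 3 were at least 2-fold higher in each coculture than in the control and none was lower, with a summed signal of 1196 in the live 1D8 coculture, 1244 in the irradiated 1D8 coculture, 585 in conditioned medium and 564 in the control. Of 5 measured B cell markers, 1 was lower in the live 1D8 coculture and 2 in the irradiated 1D8 coculture, with a summed signal of 230.5, 217.8 and 342.1 on the treated arrays and 418.2 in the control. The 8 measured T and NK cell markers had a summed signal of 358.3 in the live 1D8 coculture, 554.0 in the irradiated 1D8 coculture, 549.0 in conditioned medium and 345.0 in the control. Of these sums Zap70, a kinase gene, gave 247.1, 352.9 and 407.9 on the treated arrays and 157.8 in the control.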
